A study of Mus musculus with 6 samples.

Results

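PPARα, its coactivators and a set of genes that the liver switches on during fasting were examined in mouse liver by RNA sequencing. The set held 7 genes, taken by symbol from the 20673 genes measured: Ppara, Ppargc1a, Ppargc1b, Creb3l3, Pdk4, Fgf21 and Vnn1. The symbols were listed with earlier results of these data known, and no value was used to choose them. The livers came from 6 wild-type C57BL/6J mice without surgery or drug. Of these, 3 had been fed a regular diet (RD), a standard rodent chow, and 3 a high cholesterol diet (HCD) for 3 days. The HCD holds more fat than the chow and carries cocoa butter, cholesterol and sodium cholate. Effects of fat, of cholesterol and of cholate therefore cannot be told apart. The study used mice of both sexes at around 12 weeks of age, and the labels do not give the sex of any of these 6. Each mouse gave 1 library of liver RNA, and the libraries held 13771630 to 23129576 counts.

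PPARα is a nuclear receptor for fatty acids that binds DNA with an RXR partner and drives genes of fatty acid oxidation and ketone synthesis in the fasted liver. PGC-1α (Ppargc1a) and PGC-1β (Ppargc1b) are coactivators that nuclear receptors recruit, and CREB3L3 (CREBH) is a membrane-bound liver transcription factor that is released by proteolysis and acts with PPARα on fasting genes. Among the targets, Pdk4 encodes a kinase that shuts the pyruvate dehydrogenase complex and so spares glucose, Fgf21 a hormone secreted by the liver, and Vnn1 a pantetheinase that breaks pantetheine down to pantothenate, the precursor of coenzyme A, and cysteamine. The comparison of HCD with RD therefore asks whether 3 days of a diet rich in fat and cholesterol changed the RNA of the receptor, of its coactivators or of these targets.

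None of the 7 genes passed the threshold for a diet difference in the edgeR fit with diet as its only term. With all 6 livers the diets differed by no more than 0.27 on the log2 scale for Ppara, Ppargc1a, Ppargc1b and Creb3l3, in each case by less than the standard error of the difference. Pdk4, Fgf21 and Vnn1 had higher means with HCD, and for all 3 the highest of the 6 livers was HCD replicate 1, by a factor of 2.18 to 4.50 over the next liver. Without that liver the fold changes of Pdk4 and Fgf21 changed sign, while that of Vnn1 stayed positive.

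The calls come from the quasi-likelihood test of edgeR, with p-values adjusted by Benjamini-Hochberg over 13105 genes tested and a threshold of 0.05 on the adjusted p. It called 428 genes, 3.27% of those tested, with 1.95% higher and 1.32% lower with HCD, and 0 of the 7, none of which the low-count filter had removed. Without adjustment, 1 of the 7, Vnn1, had a p of no more than 0.05, as did 20.9% of all genes tested. DESeq2 also called 0 of the 7 and 7.2% of all genes with an adjusted p. The CPM values (counts scaled to a common library total with edgeR's TMM factors) of the 2 diets overlapped for all 7 genes, whereas they did not overlap for 27.6% of the genes tested.

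HCD replicate 1 stands apart from the other livers in ways that its label does not give. It held 5032 counts of Xist, the RNA of the inactive X chromosome, and the other 5 libraries held 0. It had 0 counts of the Y-linked genes Ddx3y, Uty, Kdm5d and Eif2s3y, each of which had 65 to 1229 counts in every other liver. The 10 male-biased liver genes examined summed to 113 CPM there and to 5773 to 8386 CPM in the other livers. The 12 female-biased liver genes summed to 2581 CPM there and to 9.51 to 64.0 CPM in the other livers. HCD replicate 1 thus had the RNA pattern of a female liver and the other 5 that of male livers, though the labels give no sex. It was at least 2 times the next liver for 131 of all genes tested, or 1.00%, and 3 of the 7 genes were among them. Because 1 liver carries both this difference and the diet, the 2 cannot be told apart in it, and the fold changes of the 7 genes are given with and without it.

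**Figure D1:**
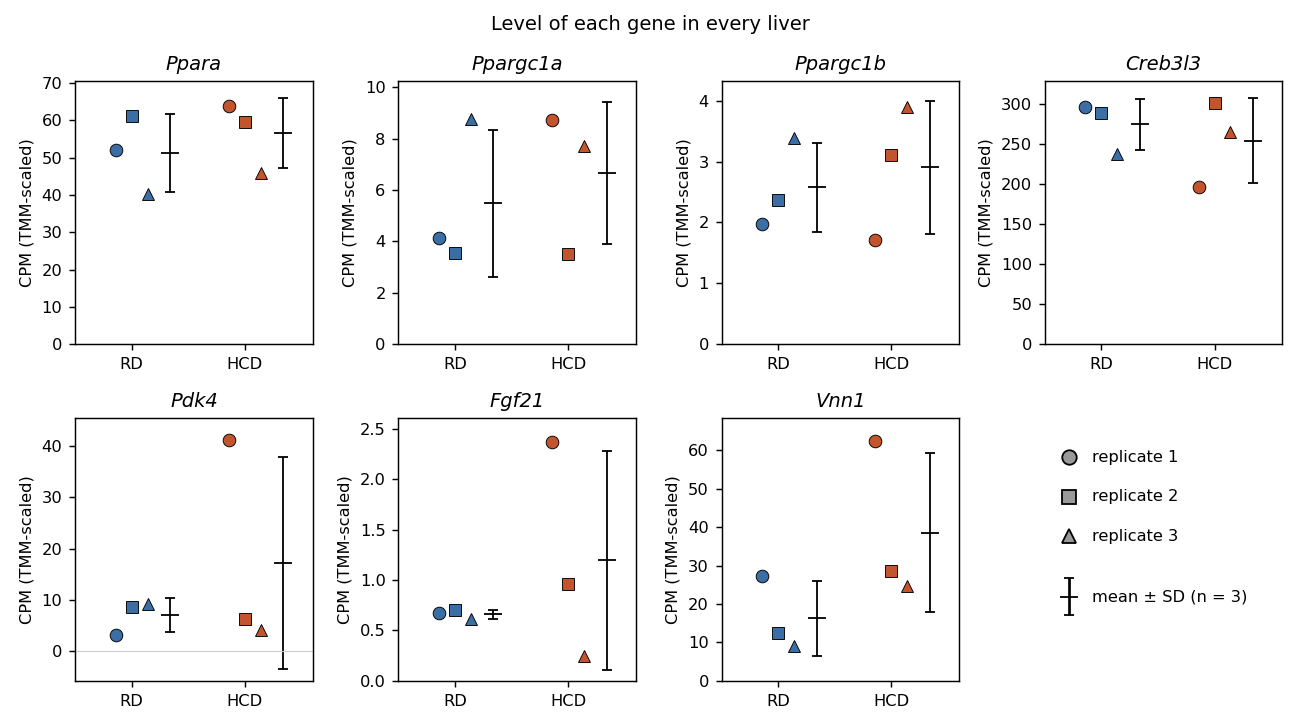
Level of the 7 genes in CPM (vertical axis, a separate scale for each gene) in the 3 RD and 3 HCD livers. Symbols mark the replicate, and the bar beside each group is the mean with its SD. HCD replicate 1 lies far above the other livers for Pdk4 (41.2 CPM), Fgf21 (2.38 CPM) and Vnn1 (62.4 CPM), whereas the diets interleave for the receptor, its coactivators and Creb3l3.

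Levels of different genes were compared as FPKM, which is scaled to gene length. With RD, Creb3l3 was the most abundant of the 7 at 133 ± 13.1 FPKM (SD, n = 3), followed by Ppara at 19.4 ± 3.61 FPKM and Vnn1 at 9.82 ± 5.80 FPKM. The other 4 lay at 2.92 ± 1.40 FPKM (Pdk4), 1.22 ± 0.665 FPKM (Ppargc1a), 1.01 ± 0.0506 FPKM (Fgf21) and 0.947 ± 0.287 FPKM (Ppargc1b). In this order the livers of Ppara and Vnn1 overlapped, as did those of each neighbouring pair from Pdk4 down to Ppargc1b, so that only the steps from Creb3l3 to Ppara and from Vnn1 to Pdk4 exceeded the spread. With HCD the order of the means was Creb3l3 (125 ± 24.0 FPKM), Vnn1 (23.8 ± 13.2), Ppara (21.9 ± 3.63), Pdk4 (7.34 ± 8.98), Fgf21 (1.87 ± 1.73), Ppargc1a (1.51 ± 0.650) and Ppargc1b (1.08 ± 0.408). Vnn1 thus stood above Ppara in mean with HCD and below it with RD, and the livers of these 2 genes overlapped with both diets.

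Ppara (ENSMUSG00000022383) spans bases 85734983 to 85802819 of chromosome 15, plus strand, in the GENCODE annotation of GRCm38. Its RNA measured 52.2, 61.2 and 40.2 CPM in RD replicates 1 to 3 and 63.9, 59.6 and 46.0 CPM in HCD replicates 1 to 3. The highest and the lowest liver, HCD replicate 1 and RD replicate 3, differed by a factor of 1.59, and each diet had livers near both ends. The fold change between the diets, HCD over RD on the log2 scale, came to 0.14 (SE 0.19, 95% interval -0.29 to 0.58, adjusted p = 0.707, edgeR). An exact two-sided permutation test over the 20 assignments of livers to diets gave p = 0.6, where 3 livers against 3 cannot give a p under 0.10.

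The coactivators were expressed at low levels. Ppargc1a (ENSMUSG00000029167, chromosome 5, 51454250 to 51567726, minus strand) measured 4.13, 3.56 and 8.77 CPM with RD and 8.74, 3.52 and 7.70 CPM with HCD. Its livers fell apart within each diet: RD replicate 3 and HCD replicates 1 and 3 were high and the other 3 low. Between the diets Ppargc1a differed by 0.27 on the log2 scale (SE 0.44, 95% interval -0.74 to 1.28, adjusted p = 0.768, edgeR), by 0.79 without RD replicate 3 and by 0.015 without HCD replicate 1. Ppargc1b (ENSMUSG00000033871, chromosome 18, 61298136 to 61400431, minus strand) measured 1.97, 2.37 and 3.39 CPM with RD and 1.72, 3.10 and 3.89 CPM with HCD, from 34 to 78 counts a library. HCD replicate 1 was the lowest liver and HCD replicate 3 the highest, so that the RD livers lay between HCD livers. The log2 fold change of Ppargc1b was 0.16 (SE 0.42, 95% interval -0.81 to 1.13, adjusted p = 0.864, edgeR) and turned negative without RD replicate 1 (-0.0073) or without HCD replicate 3 (-0.12).

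Creb3l3 (ENSMUSG00000035041, chromosome 10, 81084324 to 81098874, minus strand) measured 296, 290 and 238 CPM with RD and 197, 302 and 265 CPM with HCD. HCD replicate 1, which was highest for the fasting targets, was the lowest liver here, and the other 5 lay within 238 to 302 CPM. The log2 fold change was -0.11 (SE 0.19, 95% interval -0.54 to 0.32, adjusted p = 0.775, edgeR), and 0.044 without that liver. The intervals of Ppara and Creb3l3 were the narrowest among the 7 genes.

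Pdk4 (ENSMUSG00000019577, chromosome 6, 5483351 to 5496309, minus strand) measured 3.17, 8.65 and 9.16 CPM with RD and 41.2, 6.27 and 4.05 CPM with HCD. The value of HCD replicate 1 was 4.50 times that of the next liver, RD replicate 3, and the other 2 HCD livers lay inside the RD range. Across the 3 HCD livers the SD (20.8 CPM) was larger than the mean (17.2 CPM), and with RD the mean was 6.99 ± 3.32 CPM. The log2 fold change was 1.32 (SE 0.80, 95% interval -0.52 to 3.15, adjusted p = 0.389, edgeR) and the exact permutation p = 0.8. Without HCD replicate 1 it was -0.43 (SE 0.48, adjusted p = 0.660, edgeR). On the FPKM scale limma-trend with all 6 livers gave 0.61 with 1 added and 0.70 with 0.1 added.

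Fgf21 (ENSMUSG00000030827, chromosome 7, 45613886 to 45615490, minus strand) was near the limit of this depth, with 14, 10 and 14 counts with RD and 47, 14 and 3 with HCD. In CPM these were 0.673, 0.698 and 0.608 with RD and 2.38, 0.965 and 0.243 with HCD. The RD livers lay close together, and the HCD livers covered values on both sides of them. The library of HCD replicate 3 held no more than the 3 counts that a count of 0 still allows, at 0.215 CPM before scaling. The log2 fold change was 0.89 (SE 0.75, 95% interval -0.82 to 2.60, adjusted p = 0.536, edgeR) with an exact permutation p = 0.7, and -0.10 (adjusted p = 0.961) without HCD replicate 1. For this gene limma-trend on FPKM gave 0.33 with 1 added and 0.36 with 0.1 added.

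Vnn1 (ENSMUSG00000037440, chromosome 10, 23894688 to 23905343, plus strand) had the smallest p of the 7 genes. It measured 27.3, 12.4 and 9.12 CPM with RD and 62.4, 28.6 and 24.6 CPM with HCD. All 3 HCD livers were above RD replicates 2 and 3, and HCD replicate 3 was 9.75% below RD replicate 1, so that the diets overlapped by 1 pair of livers. The mean was 16.3 ± 9.69 CPM with RD and 38.5 ± 20.7 CPM with HCD. The log2 fold change was 1.25 (SE 0.46, 95% interval 0.19 to 2.30, unadjusted p = 0.0261, adjusted p = 0.178, edgeR) and the exact permutation p = 0.2. It stayed positive whichever liver was left out, from 0.71 without HCD replicate 1 (adjusted p = 0.375) to 1.84 without RD replicate 1, and its adjusted p lay between 0.132 and 0.440 in those fits.

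**Figure D2:**
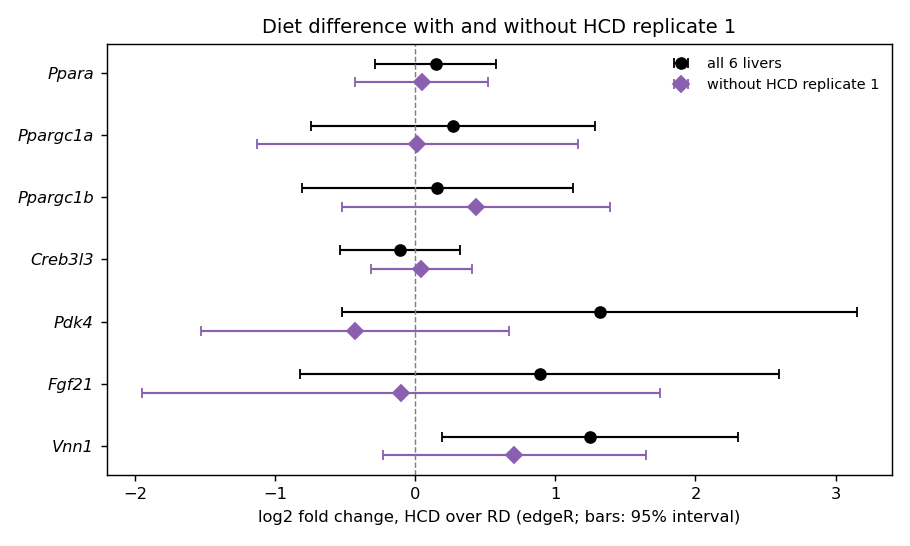
Log2 fold change of HCD over RD (horizontal axis) for the 7 genes, from edgeR with all 6 livers (circles) and without HCD replicate 1 (diamonds); bars are 95% intervals and the dashed line marks no difference. Pdk4 moves from 1.32 to -0.43 and Fgf21 from 0.89 to -0.10 when that liver is left out, and Vnn1 from 1.25 to 0.71, and the interval of every gene includes 0 in both fits except that of Vnn1 with all 6 livers.

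The DNA just before the start sites of the genes that stood out in HCD replicate 1 is shown for Fgf21 and Pdk4, as RefSeq gives it on GRCm38.p6. Each run holds the 250 bases before the start, read 5′ to 3′ on the strand of the gene. Capitals mark matches to any of the motifs searched on both strands, which were the PPAR element AGGNCANAGGNCA (a direct repeat spaced by 1 base), its single unit AGGTCA, the cAMP response element TGACGTCA, the FOXO site GTAAACA, the C/EBP-ATF element TGATGNAAT and the TATA box TATAAA.
Fgf21, chr7:45615491-45615740, minus strand: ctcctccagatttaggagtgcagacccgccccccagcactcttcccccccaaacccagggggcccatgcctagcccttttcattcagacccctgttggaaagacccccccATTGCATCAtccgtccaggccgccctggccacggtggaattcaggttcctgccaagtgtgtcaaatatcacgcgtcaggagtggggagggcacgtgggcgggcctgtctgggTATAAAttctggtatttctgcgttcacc
Pdk4, chr6:5496279-5496528, minus strand: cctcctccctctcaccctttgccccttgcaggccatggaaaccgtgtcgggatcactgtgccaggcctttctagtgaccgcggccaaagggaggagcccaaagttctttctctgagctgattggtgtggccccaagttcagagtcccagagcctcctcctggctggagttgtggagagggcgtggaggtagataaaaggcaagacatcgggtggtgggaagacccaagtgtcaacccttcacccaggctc
The Fgf21 promoter held 1 match to the C/EBP-ATF element on the opposite strand, from 140 bases before the start, and a TATA box 28 bases before it. Of 32841 RefSeq promoters of 300 bases (250 before and 50 after the start), 0.965% held the C/EBP-ATF element, 13.6% the TATA box, 16.3% the single unit and 0.381% the direct repeat. The cAMP response element was in 1.79% of them and the FOXO site in 3.65%. No motif matched in the windows of Pdk4, Ppara or Ppargc1a, and the single unit, which the direct repeat can contain, matched in 1 of the 2 Creb3l3 windows. These are matches of letters in a short window and were not tested for binding. Vnn1 and Ppargc1b were not analysed here.

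The receptor's partners and the other PPARs were measured next. Rxra, the main liver RXR, fell from 516 ± 45.0 to 321 ± 19.9 CPM (log2 fold change -0.68, SE 0.14, adjusted p = 0.0449, edgeR), with all 3 HCD livers below all RD livers. Rxrg, a minor liver RXR, rose from 3.70 ± 0.650 to 9.20 ± 0.564 CPM (log2 fold change 1.32, SE 0.24, adjusted p = 0.0299, edgeR). These were the 2 called genes among 25 partners and cofactors tested, against 3.27% of all genes, and the median log2 fold change of the 25 was -0.12 beside 0.0074 over all genes tested, and -0.00069 with the length correction and -0.0077 without HCD replicate 3. Both calls were lost whichever of the 6 livers was left out, with adjusted p between 0.0673 and 0.193 for Rxra and between 0.0515 and 0.129 for Rxrg, and both kept their direction. Among the other scalings, filters and tools, the correction for gene length ended the call of Rxra.

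Of 5 tested relatives of PPARα and CREB3L3, 0 were called by edgeR, while 3 had an unadjusted p within 0.05 and DESeq2 called 2. Ppard, the receptor PPARδ, measured 12.2, 16.5 and 16.7 CPM with RD and 14.7, 35.3 and 45.0 CPM with HCD (log2 fold change 1.06, adjusted p = 0.146, edgeR). HCD replicate 1 was the only HCD liver within the RD range for Ppard, and without it the log2 fold change was 1.41 (adjusted p = 0.0168). Pparg, the receptor PPARγ of fat storage, measured 6.97, 5.93 and 4.65 CPM with RD and 16.3, 8.0 and 8.02 CPM with HCD (0.89, adjusted p = 0.176, and 0.45 without HCD replicate 1). Creb3l2, a CREB3 family factor of the secretory pathway, had the smallest p of this list, with 45.8 ± 9.83 CPM with RD and 22.6 ± 5.58 CPM with HCD (log2 fold change -1.02, adjusted p = 0.0520, edgeR), and its adjusted p ranged from 0.0414, without HCD replicate 1, to 0.201 with each liver left out. It was also called without a filter on low counts (adjusted p = 0.0141), and DESeq2 called Creb3l2 (adjusted p = 0.00101) and Ppard (adjusted p = 0.0224).

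Other known targets of PPARα were counted in lists written from general knowledge, with earlier results of these data known. Of 66 tested genes in 5 lists, 47 had a positive and 19 a negative log2 fold change, where 50.7% of all genes tested were positive. Their median log2 fold change was 0.25 beside 0.0074 over all genes. EdgeR called 8 of the 66 higher and 0 lower, against 1.95% higher and 1.32% lower over all genes. The 8 were Ehhadh, Acaa1b and Acot4 in peroxisomal oxidation (3 of 16), Acot2 and Ucp2 in mitochondrial oxidation (2 of 19), Cyp4a10 and Cyp4a14 in omega oxidation (2 of 5) and Acot1 among genes of lipid uptake, storage and export (1 of 22). DESeq2 called 15 higher and 2 lower, and gave no adjusted p for Cyp4a14 or Acot3. With RD replicate 1, 2 or 3 left out 0 of the 66 were called, without HCD replicate 3 there were 3, without HCD replicate 1 there were 7 and without HCD replicate 2 there were 8. Over all genes the 428 calls fell as well, to 36, 51 and 146 without RD replicates 1, 2 and 3 and to 103 without HCD replicate 3, and they were 335 and 333 without HCD replicates 1 and 2. The median stayed positive in these fits, at 0.16 without HCD replicate 1. Among other scalings and filters with all 6 livers, Cyp4a14, Acot4 and Ucp2 lost their calls with library sizes alone, and Cyp4a14 also with the length correction and with genes averaging 50 counts or more. Tested with limma-trend on FPKM instead, Acot4, Ucp2, Cyp4a10 and Cyp4a14 were not called with 1 or 0.1 added, nor Acot2 with 1 added.

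The called targets differed in how the HCD livers were spread. Ehhadh, the peroxisomal bifunctional enzyme, measured 202, 234 and 252 CPM with RD and 861, 1038 and 480 CPM with HCD (log2 fold change 1.79, SE 0.27, adjusted p = 0.0184, edgeR). Here HCD replicate 2 was the highest liver and all 3 HCD livers were well above RD. Acaa1b, a peroxisomal thiolase, rose by 1.21 on the log2 scale (adjusted p = 0.0254) and Acot1, a cytosolic acyl-CoA thioesterase, by 2.30 (adjusted p = 0.0184). Acot1 was highest in HCD replicate 1, close to HCD replicate 2, and was 2.03 (adjusted p = 0.0297, edgeR) without HCD replicate 1. The thioesterases Acot4 (1.91, adjusted p = 0.0410) and Acot2 (2.72, adjusted p = 0.0354) and the mitochondrial carrier Ucp2 (0.72, adjusted p = 0.0432) were highest in HCD replicate 1. Without that liver they were 1.37 (adjusted p = 0.0468), 2.06 (adjusted p = 0.0659) and 0.63 (adjusted p = 0.0828), so that Acot2 and Ucp2 lost their calls. Acot1 and Acot2, Acaa1b and Acaa1a, and the Cyp4a genes have close copies, and the sources used here do not say how reads were divided between copies.

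The omega hydroxylases of fatty acids Cyp4a14 and Cyp4a10 were, like Pdk4, highest in HCD replicate 1. In the omega oxidation list this held for 4 of 5 genes. Cyp4a14 measured 5.82, 17.5 and 40.6 CPM with RD and 2054, 202 and 201 CPM with HCD (log2 fold change 5.26, SE 1.14, adjusted p = 0.0474, edgeR). Cyp4a10 measured 41.1, 64.0 and 56.4 CPM with RD and 853, 174 and 231 CPM with HCD (2.96, SE 0.57, adjusted p = 0.0343, edgeR). That liver was far above the rest for both, but unlike Pdk4 and Fgf21 the other 2 HCD livers also lay above every RD liver, and both stayed called without it (3.24 with adjusted p = 0.0427 for Cyp4a14, and 1.91 with adjusted p = 0.00828 for Cyp4a10).

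**Figure D3:**
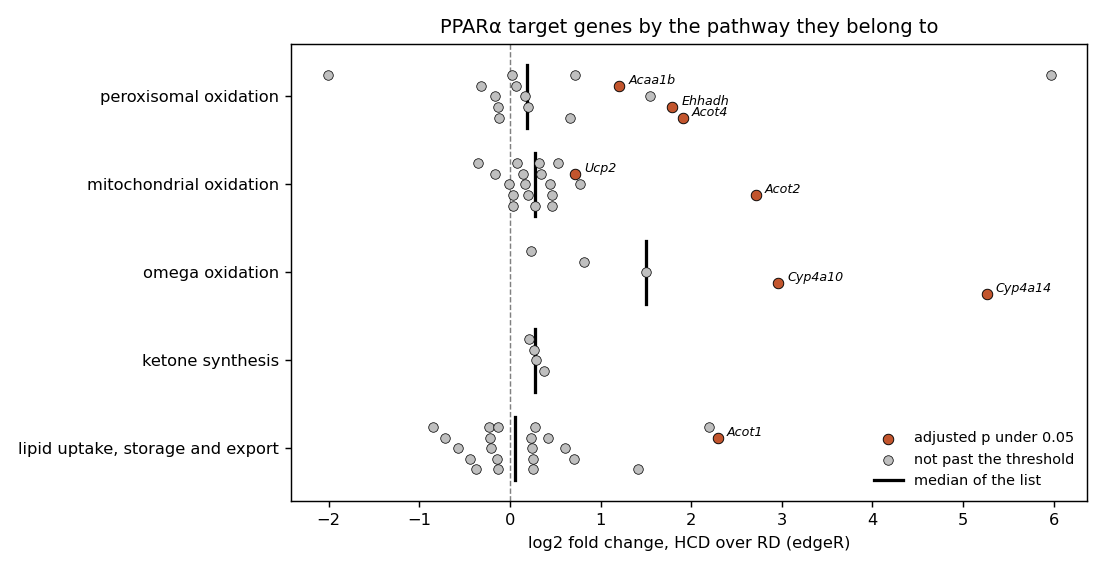
Log2 fold change of HCD over RD (horizontal axis) of 66 other PPARα target genes in 5 lists (vertical axis). Each circle is a gene, the 8 filled and named ones passed an adjusted p under 0.05 in edgeR, and the black bars are list medians, from 0.05 for lipid uptake, storage and export to 1.5 for omega oxidation. Without HCD replicate 1 these 2 medians were -0.097 and 0.99, and the first was -0.072 without RD replicate 3.

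Several textbook PPARα targets did not pass the threshold in edgeR. Cpt1a, which lets fatty acids into mitochondria, measured 248 ± 31.9 CPM with RD and 195 ± 37.2 CPM with HCD (log2 fold change -0.35, adjusted p = 0.306, edgeR), and was -0.23 without HCD replicate 3. In the ketone list 0 of 4 were called by edgeR or DESeq2, and 0 had an unadjusted p within 0.05, and the smallest p belonged to the ketone body dehydrogenase Bdh1 (0.38, adjusted p = 0.255, and 0.18 without HCD replicate 1). Plin2, a lipid droplet coat protein, differed by 0.23 on the log2 scale (adjusted p = 0.462), and by 0.070 without HCD replicate 2. Angptl4, an inhibitor of lipoprotein lipase, differed by 0.71 (adjusted p = 0.0937), with all HCD livers above RD, and was called by DESeq2 (adjusted p = 0.0197). Cd36, a fatty acid transporter, measured 12.8, 7.81 and 27.1 CPM with RD and 160, 20.3 and 39.0 CPM with HCD (2.19, adjusted p = 0.145), and 0.88 without HCD replicate 1. Among the 66 targets, 28 were highest in HCD replicate 1, which held the highest value for 19.4% of all genes tested, beside 22.2% for HCD replicate 3.

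**Figure D4:**
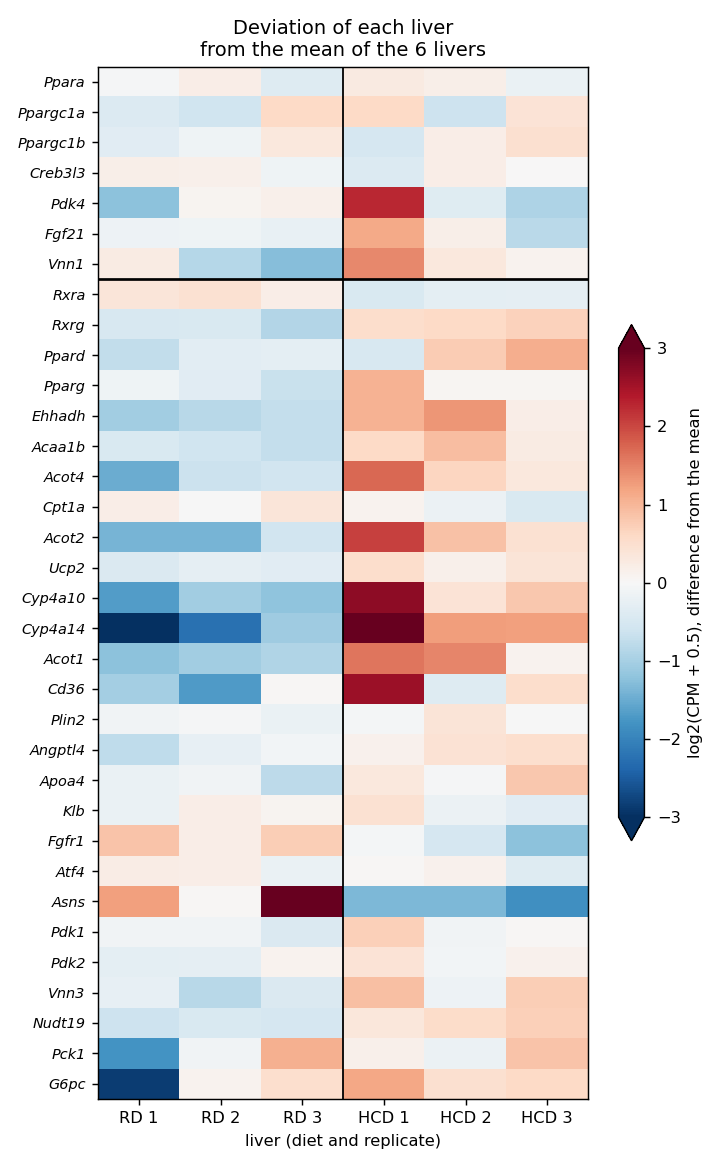
Deviation of each liver (columns, diet and replicate) from the mean of the 6 livers on the scale log2(CPM + 0.5) for the 7 genes (above the black line) and named genes of their pathways; red is higher and blue lower, and the colours end at -3 and 3. Pdk4, Fgf21, Vnn1, Cyp4a14 and Cd36 are reddest in HCD 1, whereas Rxra is low and Nudt19 high in all 3 HCD livers.

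The lists around the coactivators and CREB3L3 came next. Of 14 partners of PGC-1 and factors of mitochondrial biogenesis, 0 were called by edgeR, with 3 at an unadjusted p within 0.05 and 1 by DESeq2. The smallest p in that list was that of Esrrg, an orphan receptor that PGC-1 coactivates, at 0.825 ± 0.209 CPM with RD and 2.74 ± 0.314 CPM with HCD (log2 fold change 1.72, adjusted p = 0.0661, edgeR). DESeq2 called it (adjusted p = 0.0353), and limma-trend on FPKM plus 1 gave 0.47. Of 9 tested CREB3L3 targets and processing enzymes 0 were called by edgeR, with 2 at an unadjusted p within 0.05 and 2 by DESeq2, and the 2 named here were apolipoproteins of triglyceride-rich particles. Apoa4 measured 68.3 ± 16.1 and 114 ± 33.7 CPM (0.74, adjusted p = 0.14) and Apoa5 783 ± 67.7 and 1245 ± 59.4 CPM (0.67, adjusted p = 0.0552), and for both every HCD liver was above every RD liver. DESeq2 called both (adjusted p = 0.0357 and 0.000536). In edgeR Apoa5 was called with upper-quartile factors (adjusted p = 0.0476), without a filter on low counts (0.0427) and with genes averaging 50 counts or more (0.0468), and in no fit that left out a liver. Apoa4 was 0.48 without HCD replicate 3.

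The receptors through which FGF21 acts were given beside the hormone. All 5 had negative log2 fold changes, and 0 were called by edgeR, with 2 at an unadjusted p within 0.05 and 1 by DESeq2. Klb, the coreceptor β-klotho, measured 22.4 ± 3.23 CPM with RD and 22.0 ± 6.90 CPM with HCD (log2 fold change -0.02, adjusted p = 0.973), and its sign changed with upper-quartile scaling (0.021) and with the length correction (0.023). Fgfr1, a receptor kinase that pairs with β-klotho, measured 7.79, 4.81 and 7.21 CPM with RD and 3.94, 2.76 and 1.46 CPM with HCD (-1.26, adjusted p = 0.123, and -0.49 with limma-trend on FPKM plus 1), and was the 1 called by DESeq2 (adjusted p = 0.0399). ATF4, the stress factor that also drives Fgf21, had a transcript level of 99.8 ± 16.0 and 90.2 ± 16.5 CPM (-0.15, adjusted p = 0.688). In the ATF4 arm 1 of 11 genes tested was called, the asparagine synthetase Asns, with 77, 19 and 385 counts with RD and 4, 3 and 0 with HCD (-5.57, SE 1.13, adjusted p = 0.0403, edgeR). The call of Asns was lost in 5 of the 6 fits that left out a liver, with the largest adjusted p at 0.118. It was also lost with limma-trend on FPKM, where the log2 fold change was -1.79 with 1 added (adjusted p = 0.143) and -3.91 with 0.1 added (adjusted p = 0.0616).

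Beside Pdk4, 0 of 9 tested genes of the pyruvate dehydrogenase complex, its kinases and phosphatases were called by edgeR or DESeq2, with 1 at an unadjusted p within 0.05. This was the phosphatase Pdp2, which reverses the action of the kinases, at 33.3 ± 2.92 CPM with RD and 24.8 ± 3.97 CPM with HCD (log2 fold change -0.43, adjusted p = 0.183, edgeR). The sister kinases Pdk1 (0.47, adjusted p = 0.268) and Pdk2 (0.31, adjusted p = 0.357) were both highest in HCD replicate 1, at 97.3 and 148 CPM, and without it their log2 fold changes were 0.17 and 0.17.

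Of 10 genes of pantetheinases and coenzyme A synthesis tested beside Vnn1, 1 was called, 4 had an unadjusted p within 0.05 and DESeq2 called 2. Nudt19, a peroxisomal hydrolase of coenzyme A, measured 33.5, 37.3 and 36.4 CPM with RD and 65.1, 75.3 and 85.0 CPM with HCD (log2 fold change 1.07, SE 0.14, adjusted p = 0.0120, edgeR). Its call was lost without RD replicate 1 or 2, up to an adjusted p of 0.0781. Vnn3, the paralog of Vnn1, measured 49.6, 33.3 and 43.8 CPM with RD and 112, 53.7 and 99.8 CPM with HCD (1.06, SE 0.27, adjusted p = 0.0728, edgeR), with every HCD liver above RD. Vnn3 was called with DESeq2 (adjusted p = 0.00149), without a filter on low counts (adjusted p = 0.0231) and without HCD replicate 2 (adjusted p = 0.0296), and its adjusted p was 0.133 to 0.268 with any other liver left out.

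The nutritional state of the livers bears on fasting genes, and its markers varied within the diets. The study reports that its HCD mice ate modestly less before surgery, while body weight did not differ significantly. The labels do not give the intake of these mice, and its part in the levels was not tested. Pck1, a gluconeogenic enzyme that rises on fasting, measured 503, 1621 and 3641 CPM with RD and 1943, 1552 and 3177 CPM with HCD (log2 fold change 0.21, adjusted p = 0.870, edgeR). G6pc, the glucose-releasing phosphatase, measured 42.4, 334 and 436 CPM with RD and 687, 434 and 471 CPM with HCD (0.97, adjusted p = 0.432, and 1.51 and 1.52 with limma-trend on FPKM plus 1 and 0.1). RD replicate 1 was the lowest liver for both, and without it G6pc was 0.46 and Pck1 -0.25 on the log2 scale. Without RD replicate 3 they were 1.5 and 1.06. Of 15 fasting, glucagon and glucocorticoid genes 0 were called by edgeR, with 4 at an unadjusted p within 0.05 and 3 by DESeq2, and the smallest p was that of the clock gene Per1 (1.67, adjusted p = 0.0566). Per1 was called without HCD replicate 1 (1.95, adjusted p = 0.0297), without a filter on low counts (adjusted p = 0.0111) and by DESeq2 (adjusted p = 0.000208), and its adjusted p was 0.0525 to 0.211 with any other liver left out. Of 12 lipogenic genes of the fed state 3 had a positive and 9 a negative log2 fold change. Their median was -0.32 beside 0.0074 over all genes tested, and -0.16 without HCD replicate 2. At an unadjusted p within 0.05, 2 were higher and 2 lower, and DESeq2 called 2 higher and 2 lower. EdgeR called 1 higher and 1 lower, both also with every liver left out in turn. Srebf1, the lipogenic transcription factor, rose from 227 ± 45.4 to 1001 ± 168 CPM (2.14, adjusted p = 0.00407). Acacb, the mitochondrial acetyl-CoA carboxylase, fell from 89.9 ± 19.5 to 25.7 ± 3.84 CPM (-1.81, adjusted p = 0.00523).

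Markers of the cell types of the liver were examined as lists. Of 13 hepatocyte markers tested 0 were called by edgeR, with 4 at an unadjusted p within 0.05 and 4 by DESeq2. All 12 Kupffer cell markers had positive log2 fold changes (median 0.84). Of the 12, 1 was called, Cd68, whose call was lost in 5 of the 6 fits that left out a liver, while 6 had an unadjusted p within 0.05 and DESeq2 called 5. Their summed level was 180 to 287 CPM with RD and 524, 467 and 245 CPM in HCD replicates 1 to 3. Of 5 red blood cell genes tested 2 were called higher, the globins Hba-a1 and Hbb-bs, whose counts are uncertain because each has a near-identical copy, with 3 by DESeq2, a median of 2.28 and a summed level of 138 to 239 CPM with RD and 177, 470 and 453 CPM with HCD. Those 2 calls were lost without RD replicate 1 or 2 or HCD replicate 3. Sinusoidal endothelial and stellate markers were summed highest in HCD replicate 1, at 335 and 374 CPM against 158 to 273 and 237 to 339 CPM in the other livers, and edgeR called 0 of 10 in each list, with 2 and 4 at an unadjusted p within 0.05 and 2 and 0 by DESeq2. Of 9 skeletal muscle markers 1 could be analysed here, at no more than 26 counts in any liver. Their part in the levels of Pdk4, Fgf21 and Vnn1 was not tested, and in whole tissue fewer cells of a type and less RNA per cell cannot be told apart.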

How the data were processed

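The authors deposited read counts per gene, whole numbers without normalization, and FPKM values, scaled to gene length and sequenced total. Novogene made the libraries, and the submitters' processing notes name STAR, HTSeq, DESeq2, edgeR and the build GRCm39. The deposited tables hold no coordinates, and the length that each of the 7 genes must have had in the FPKM calculation is that of GENCODE M21 (GRCm38), used here for positions. The log2 fold changes and p-values that the authors deposited were not used.

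Counts were analysed with edgeR 4.0.16 in R 4.3.3 (filterByExpr by diet, TMM, glmQLFit and glmQLFTest without covariates), after the fit was tested on simulated data. In that simulation, which gave every gene the same dispersion, the fit called 99% of 4-fold changes but only 25% of 2-fold changes. CPM are TMM-scaled, with 0.5 added before logs. The members and lists were chosen with earlier results of these data known. Named genes are the 7 members, 22 fixed pathway genes, up to 3 called genes in each direction of every list or, with none called, the gene of smallest p, and the 2 genes most like each member. Some genes that this rule names are not reported here. The labels number the livers without saying how the mice were housed or the samples handled, so p-values measure only the spread between these samples, which all differed by more than sampling noise (chi-square per degree of freedom of at least 30.3 within a diet). The spread among livers within a diet (biological coefficient of variation 27.75%), not the depth, sets the precision of most values.

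The 17 alternatives were upper-quartile or RLE scaling, unscaled library sizes, all genes with a count, genes averaging 50 counts or more, DESeq2 1.42.0, limma-trend (limma 3.58.1) on FPKM plus 1 or 0.1, a loess correction for gene length, protein-coding genes only, the replicate number as a block, and each liver left out. Figures were drawn with matplotlib 3.10.9.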

Additional observations from a re-analysis of the deposited data

How the results depend on the processing

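Of 117 values of the 7 fold changes under alternatives, 110 kept their direction and their side of the threshold, 6 changed sign, each when 1 liver was left out, and 1 passed the threshold. With each liver left out in turn the log2 fold change ran from -0.0054 to 0.29 for Ppara, 0.015 to 0.79 for Ppargc1a, -0.12 to 0.43 for Ppargc1b, -0.26 to 0.044 for Creb3l3, -0.43 to 1.77 for Pdk4 and -0.10 to 1.34 for Fgf21. Among other named genes Klb ran from -0.31 to 0.13, and was 0.021 with upper-quartile factors and 0.023 with the length correction, and Pck1 from -0.25 to 1.06. Of the 7 genes 0 were called with any liver left out, 1 with the replicate block and 1 at an unadjusted p within 0.05. With the replicate number as a block Vnn1 was 1.27 with adjusted p = 0.0276 in edgeR, Vnn3 was 1.02 with adjusted p = 0.0489 and Creb3l2 was -1.03 with adjusted p = 0.0489. In that fit Pdk4 was 0.56 and Fgf21 0.48. The calls of Rxra, Rxrg, Asns and the 8 PPARα targets were lost in it, with adjusted p from 0.0525 (Acaa1b) to 0.148 (Cyp4a14). No source says that the numbers pair the livers. The correlations of same-numbered livers were -0.076, 0.088 and -0.041, beside -0.107 to 0.133 for livers of different numbers. With so few livers these cannot decide whether livers of the same number shared a litter or a day. The 428 calls over all genes became 649 without a filter on low counts, 995 with DESeq2, 255 with the length correction, 136 with the replicate block and 36 to 335 with a liver left out. The 14 calls in the pathway lists became 26 without a filter, 36 with DESeq2, 8 and 9 with limma-trend on FPKM plus 1 and 0.1, 6 with the replicate block, 55 at an unadjusted p within 0.05 and 2 to 13 with a liver left out. The filter at a mean of 50 counts left Ppargc1b and Fgf21 without a value. The cause of these changes was not tested. Depth limits Fgf21, at 3 to 47 counts a library, and Ppargc1b.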

Other observations

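The 2 genes whose pattern over the 6 livers was most like that of each gene were taken by Pearson's r of log2(CPM + 0.5) among the 9112 genes tested whose mean was 5 CPM or more. The 6 points are the same libraries for every gene, so r is a description. For Ppara these were Zfp639 (r = 0.979) and Card10 (r = 0.976), and for Ppargc1a Tab2 (r = 0.991) and Nr6a1 (r = 0.983). For Ppargc1b they were Gatd1 and Abhd4 (both r = 0.981), and for Creb3l3 Cyp1a2, a drug-metabolizing cytochrome P450 (r = 0.997), and Mb21d2 (r = 0.994). Pdk4 was followed most closely by Snx1 (r = 0.987) and Tmem106b (r = 0.983), Fgf21 by Tmem128 (r = 0.987) and Mtmr2 (r = 0.979), and Vnn1 by Smap2 (r = 0.986) and Ier2 (r = 0.975).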
